A study of Equus caballus with 10 samples.

Results

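The colony-stimulating factors and their receptors form a family of 9 genes, listed by name, of which 8 had a row under that name in the deposited table of 29196 genes. These were the ligands CSF1, CSF2, CSF3, IL34 and KITLG and the receptors CSF1R, CSF2RB and CSF3R. The name CSF2RA was not among the rows, and the row LOC102148014, whose number is the identifier given to CSF2RA in RefSeq's gene table of the horse assembly TB-T2T, was therefore described beside the 8 and not counted with them. The table of RefSeq belongs to another assembly than the one used for quantification, so the gene model behind that row may differ.

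The cells were tenocytes, the fibroblasts of tendon, taken from the superficial digital flexor tendon of adult Thoroughbred or Thoroughbred-type horses and cultured for 14 days in 3D gels of bovine collagen in a medium with fetal bovine serum. Both groups received PF-06650833, an inhibitor of IRAK-4, the kinase that carries the signal of the IL-1 receptor towards NFκB, at 100 nM every day. One group had no other treatment (PF) and the other was also given IL-1β (PF + IL-1β), at a dose of 17 ng/ml every 3 to 4 days. Each group held 5 libraries, and the same 5 donors gave 1 library to each group. Because the inhibitor was present in all 10 libraries, the comparison describes the response to IL-1β that was measured under IRAK-4 inhibition, and libraries without the inhibitor were not used here.

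Colony-stimulating factors are secreted or membrane-bound cytokines that control the formation, survival and activation of blood cells. CSF3 (G-CSF) drives the production and mobilization of neutrophils through its receptor CSF3R. CSF2 (GM-CSF) acts on granulocytes, macrophages and dendritic cells through a ligand-binding chain, CSF2RA, and a signalling chain, CSF2RB, which is shared with the receptors of IL-3 and IL-5. CSF1 (M-CSF) and IL34 are alternative ligands of CSF1R, the receptor on which macrophages depend, and KITLG (stem cell factor) binds the receptor KIT of mast cells and blood progenitors. Fibroblasts are a known source of several of these ligands, and NFκB is a known activator of the CSF2 and CSF3 genes.

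Values were the variance-stabilized log2 values of the authors, in which a gene without reads stands at 3.433. The estimated depth was between 26392082 and 35738537 reads per library. A gene was called differentially expressed where its adjusted p was below 0.05 (limma, Benjamini-Hochberg) and its log2 fold change at least 1 in size. Of the 17992 genes tested, 6.68% were called, 3.11% as higher and 3.57% as lower with PF + IL-1β. With the donor as a block 8.26% were called, 4.01% as higher. All 5 ligands could be tested, and the 3 receptors listed by name did not pass the filter of reads in at least 5 libraries, since each had reads in at most 1.

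Of the 8 genes, CSF3 was called in the fit without a donor term, and CSF3 and KITLG were called with the donor as a block, in each case as higher with PF + IL-1β. The ligands thus separated into CSF3, which rose by orders of magnitude, KITLG and CSF2, and CSF1 and IL34. KITLG and CSF2 had higher values in every donor, by smaller amounts or on few reads. CSF1 and IL34 did not pass the test in either fit. CSF2, CSF3 and KITLG each had higher values in 5 of 5 donors, as did 16.0% of all tested genes. For CSF2, however, donor 3 had 0 and 1 estimated reads. Donor 4 had 1 estimated read in both libraries and differed only after normalization. The plot of the members by donor shows these patterns side by side.

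**Figure D1:**
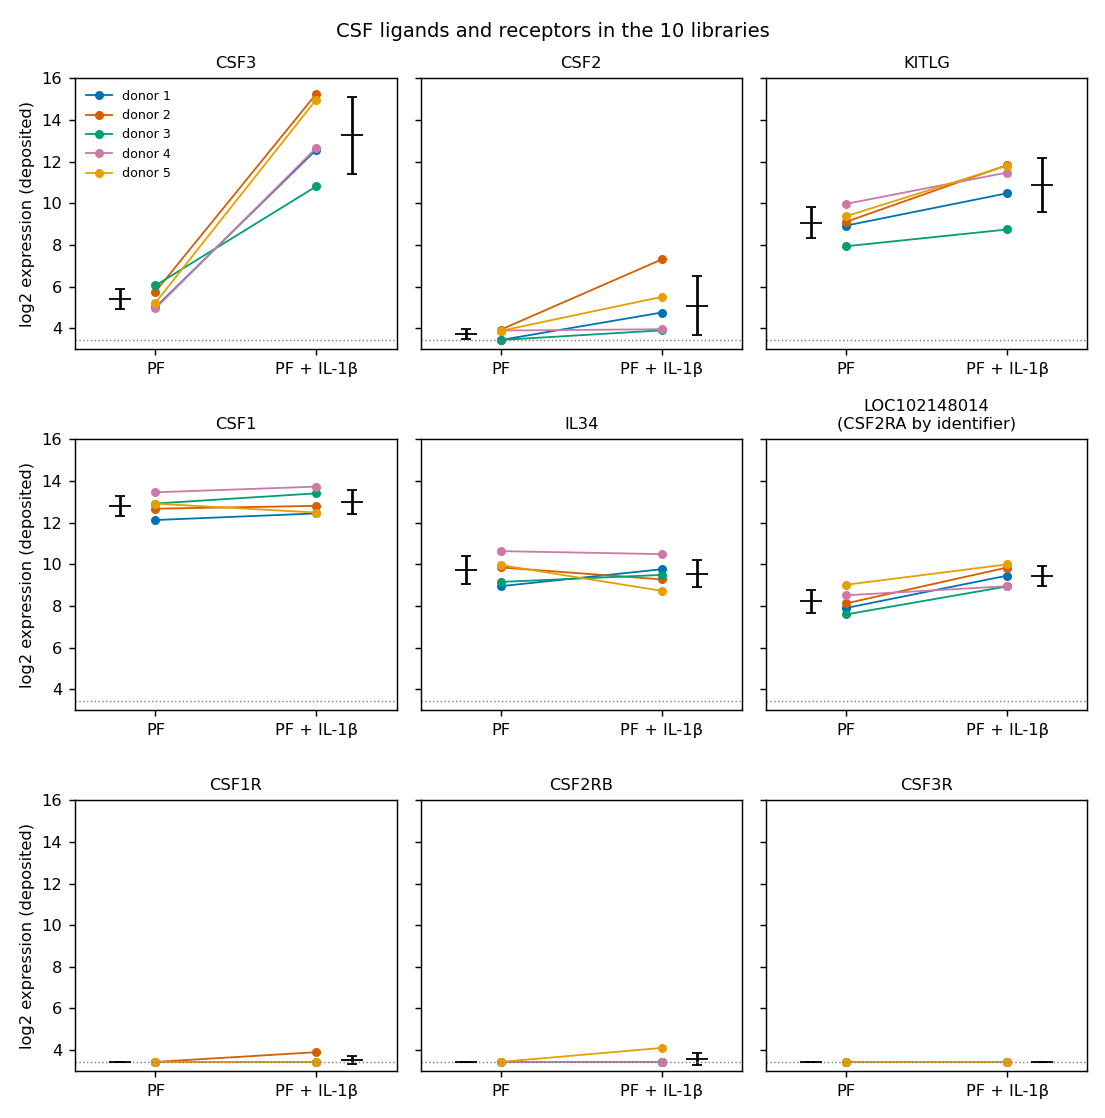
Deposited log2 expression (y axis, variance-stabilized) of each gene with PF and with PF + IL-1β (x axis). Each coloured line joins the libraries of 1 donor, black marks give the mean ± SD of 5 libraries and the dotted line is the value of 0 reads, 3.433. CSF3 is the gene whose groups lie apart, and CSF1R, CSF2RB and CSF3R lie on or next to the dotted line.

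CSF3, the granulocyte colony-stimulating factor, was at 5.00, 5.76, 6.05, 4.95 and 5.22 on the log2 scale in donors 1 to 5 with PF. With PF + IL-1β it was at 12.58, 15.26, 10.81, 12.66 and 14.99 in the same donors. The groups did not overlap, as was the case in this direction for 6.29% of the tested genes. The lowest library with PF + IL-1β, that of donor 3, lay more than 4 log2 units above the highest library with PF, which came from the same donor. In estimated reads these values stood for 12 to 35 reads per library with PF and for 1533 to 34486 with PF + IL-1β. The low level with the inhibitor alone was therefore measured on few reads but not on none.

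The mean of CSF3 rose from 5.40 ± 0.49 to 13.26 ± 1.86 (SD, n = 5 in each group), which is a log2 fold change of 7.86 (SE 0.73, adjusted p = 1.50e-04, limma). This was the change in rank 4 among the 17992 tested genes ordered from the largest increase. Within donors the fold of normalized counts was 432 in donor 1, 1130 in donor 2, 38.2 in donor 3, 495 in donor 4 and 1719 in donor 5. The spread between donors was thus wide, and the direction was shared by all 5. The tested genes with a symbol whose values followed those of CSF3 most closely over the 10 libraries were UBE2L6, which encodes a conjugating enzyme for ISG15 (Pearson r 0.989), the neutrophil chemokine gene CXCL8 (0.988) and NYNRIN (0.988). These correlations contain the difference between the groups, and after the group means were removed they were 0.878, 0.873 and 0.882.

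CSF2, the granulocyte-macrophage colony-stimulating factor, had few reads in most libraries. With PF it was at 3.43, 3.93, 3.43, 3.89 and 3.87 on the log2 scale in donors 1 to 5, which stood for 0 or 1 read in each library. With PF + IL-1β it was at 4.75, 7.30, 3.89, 3.95 and 5.50, or 8, 121, 1, 1 and 22 estimated reads. Donors 1, 2 and 5 thus had CSF2 reads well above those with PF, donors 3 and 4 were at a single read, and the groups overlapped. Over the group the estimated reads numbered 3 with PF and 153 with PF + IL-1β, a ratio of 53.6 after allowing for depth (exact 95% confidence interval 18.0 to 263, which covers counting error only). Without donor 2, which held most of these reads, the ratio was 17.8 (4.55 to 154).

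The test over donors was less firm than the counting interval. The log2 fold change of CSF2 was 1.37 (SE 0.56, 95% confidence interval 0.15 to 2.59, adjusted p = 0.124, limma) and the adjusted p was 0.0605 with the donor as a block. On this scale the change of a gene with few reads is understated. On the back-transformed scale of log2(normalized count + 1) the log2 fold change was 2.87. Its adjusted p was 0.0843 from limma without the block, and 0.0732 on the scale of log2(normalized count + 0.5). With the donor as a block on log2(normalized count + 1), a fit chosen after seeing the data, the adjusted p was 0.0410 from limma. In that fit 4.95% of the tested genes were called as higher.

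KITLG, the ligand of the receptor KIT, was at 8.93, 9.11, 7.94, 9.98 and 9.38 on the log2 scale in donors 1 to 5 with PF. With PF + IL-1β it was at 10.48, 11.84, 8.74, 11.48 and 11.81. Donor 3 was the lowest library of both groups, and its value with IL-1β lay below those of 4 donors without it, so that the groups overlapped although KITLG was higher in each donor. The fold of normalized counts was 3.02, 6.84, 1.82, 2.87 and 5.53 in donors 1 to 5.

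The mean of KITLG was 9.07 ± 0.75 (SD, n = 5) with PF and 10.87 ± 1.31 (SD, n = 5) with PF + IL-1β, a log2 fold change of 1.80. Whether it passed the test depended on the fit, and among other things on how the spread between donors was treated. Without a donor term the SE was 0.58 and the adjusted p was 0.0568, limma, and with the donor as a block they were 0.26 and 0.00326. The first of these results lay close to the threshold. Without the library of donor 3 with PF + IL-1β the log2 fold change was 2.33 with an adjusted p of 0.00421 from limma. KITLG was also called without a donor term after median centring (adjusted p = 0.0478, limma) and with array weights (0.0187). Of 25 alternative fits, 6 called it.

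**Figure D2:**
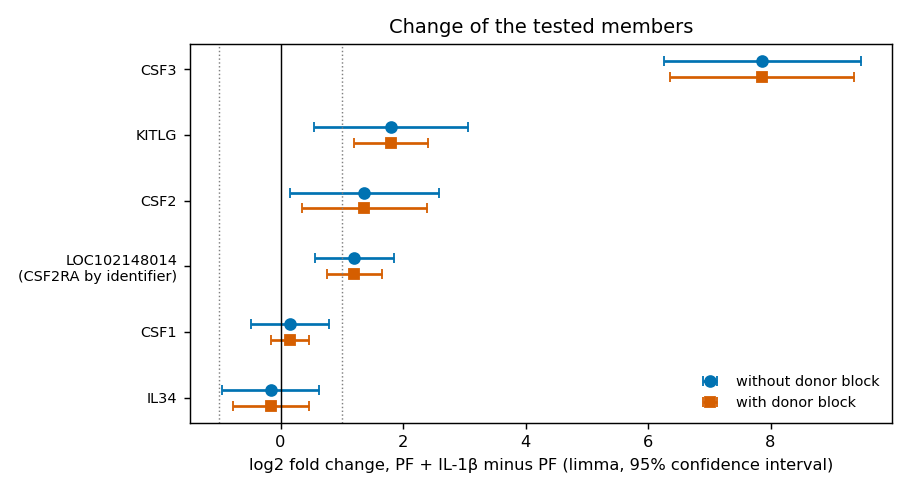
Log2 fold change from limma (x axis, PF + IL-1β minus PF, 5 libraries each) of the tested members, with 95% confidence intervals without (circles) and with (squares) the donor as a block. Dotted lines mark an absolute change of 1. The interval of CSF3 starts at 6.26, that of KITLG narrows to 1.20 to 2.41 with the block, and those of CSF1 and IL34 include 0 and stay between the dotted lines.

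CSF1 and IL34, both ligands of CSF1R, had reads in every library of both groups. CSF1 was at 12.13, 12.67, 12.92, 13.46 and 12.91 on the log2 scale in donors 1 to 5 with PF and at 12.44, 12.81, 13.41, 13.73 and 12.48 with PF + IL-1β. It was slightly higher with IL-1β in 4 donors and lower in donor 5, and the ranges of the groups almost coincided. Its log2 fold change was 0.16 (SE 0.29, 95% confidence interval -0.48 to 0.80, adjusted p = 0.772, limma). With the donor as a block the interval was -0.16 to 0.47. Both intervals lay within an absolute log2 change of 1, and with 3926 or more estimated reads per library depth was not the limit.

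IL34 was at 8.95, 9.85, 9.15, 10.63 and 9.96 with PF and at 9.76, 9.27, 9.49, 10.49 and 8.72 with PF + IL-1β. The donors moved in opposite directions, higher with IL-1β in donors 1 and 3 and lower in donors 2, 4 and 5. The changes ranged from -1.24 in donor 5 to 0.81 in donor 1, and their mean was -0.16 (SE 0.36, 95% confidence interval -0.96 to 0.64, adjusted p = 0.817, limma). The small mean of IL34 therefore stood for changes within donors that were larger than those of CSF1, with an SD of the 5 changes of 0.79 against 0.35. The sign of both means rested on single libraries. Without the library of donor 1 with PF the log2 fold change of CSF1 was -0.015, and without that of donor 5 with PF + IL-1β that of IL34 was 0.045.

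Of the receptors listed by name, CSF3R, the receptor of CSF3, was at the value of 0 reads in all 10 libraries. CSF1R was at this value in 9 libraries and had 1 estimated read in donor 2 with PF + IL-1β. CSF2RB, the signalling chain of the GM-CSF receptor, was also at this value in 9 libraries and had 2 estimated reads in donor 5 with PF + IL-1β. A count of 0 reads allows up to 3 reads in a library of this depth. KIT, the receptor of KITLG, was at the value of 0 reads in all 10 libraries as well. With all genes tested that are not constant, CSF1R had a log2 fold change of 0.093 (adjusted p = 0.638, limma) and CSF2RB of 0.13 (0.607), and CSF3R, which is constant, could not be tested. No difference between the groups was detectable at this depth for these receptors, which does not show that they were absent from every cell.

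The row LOC102148014, which carries the identifier of CSF2RA, was in contrast well above 0 reads. It was at 7.90, 8.12, 7.59, 8.51 and 9.02 on the log2 scale in donors 1 to 5 with PF and at 9.45, 9.84, 8.94, 8.95 and 10.00 with PF + IL-1β. It was higher with IL-1β in 5 of 5 donors, and the groups overlapped only in that donor 5 with PF lay above donors 3 and 4 with PF + IL-1β. The fold of normalized counts lay between 1.38 in donor 4 and 3.48 in donor 2. Its mean rose from 8.23 ± 0.55 to 9.43 ± 0.49 (SD, n = 5 in each group), which is a log2 fold change of 1.21 (SE 0.30, adjusted p = 0.0190, limma), and the adjusted p was 0.00454 with the donor as a block. It was no longer called without the library of donor 2 with PF + IL-1β (log2 fold change 1.10, adjusted p = 0.0523), without donor 1 (1.12, 0.0967) or without donor 2 (1.08, 0.0999). In bulk RNA of this kind, a change in the number of cells that express a gene and a change in the RNA per cell cannot be told apart.

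**Figure D3:**
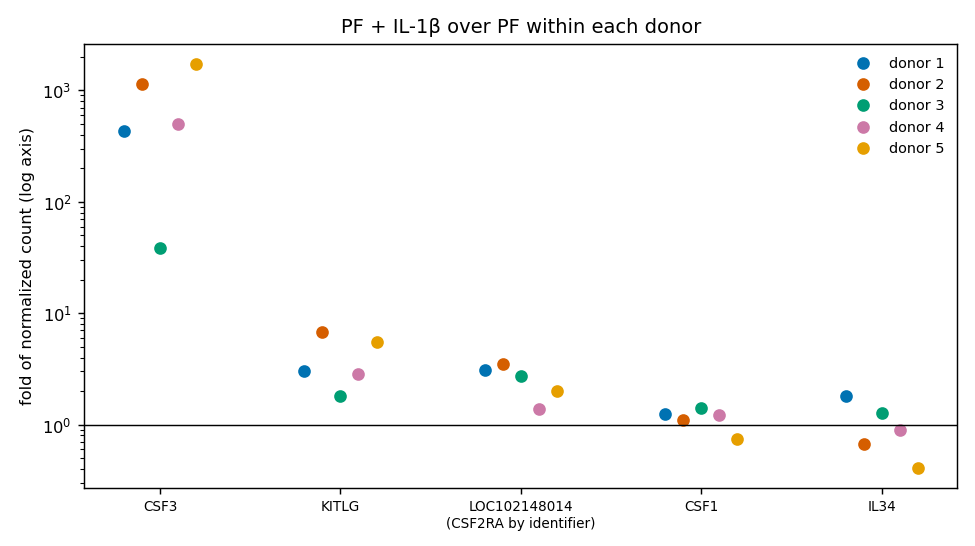
Fold of the normalized count with PF + IL-1β over PF (y axis, logarithmic) for CSF3, KITLG, LOC102148014, CSF1 and IL34, with 1 point per donor. CSF2 is left out because its counts with PF stand for 0 or 1 read. The folds of CSF3 span 38.2 to 1719, whereas those of CSF1 span 0.743 to 1.40 and those of IL34 0.412 to 1.79, on both sides of the line at 1.

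The donors kept similar places across the ligands that were higher with IL-1β. With PF + IL-1β, donors 2 and 5 held the highest places for CSF2, CSF3 and KITLG and for LOC102148014, and donor 3 held the lowest place for all of them. The order was another one for CSF1 and IL34, which were highest in donor 4. With PF, CSF3 was highest in donor 3, the donor in which it was lowest with PF + IL-1β. Donors 2 and 5 also showed the lowest changes of CSF1 (0.14 and -0.43) and of IL34 (-0.58 and -1.24) among the 5. Over all tested genes the change was widest in donors 5 and 2 as well, with an SD of 0.98 and 0.88, and narrowest in donor 3, with 0.63, and the part of this general difference in the places of the ligands was not tested.

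The genes that surround this family were examined in lists of symbols. Over all tested genes 6.68% were called, 3.11% as higher and 3.57% as lower, and 8.26% with the donor as a block. The groups did not overlap, in either direction, for 12.7% of the tested genes, and 16.0% were higher in 5 of 5 donors. The share that was lower in 5 of 5 donors was not counted. Of 13 related ligands and receptors of blood cell growth, 8 could be tested and 1 was called, with a median log2 fold change of -0.0021 against -0.0063 over all tested genes. This was EPOR, the erythropoietin receptor, which fell from 8.10 ± 0.44 to 6.57 ± 0.16 (SD, n = 5 in each group), which is a log2 fold change of -1.53 (adjusted p = 0.00137, limma), without overlap of the groups. Of the other proteins to which IL34 is known to bind, the proteoglycan SDC1 had a log2 fold change of 0.54 (adjusted p = 0.0450, limma), below the minimum for a call, and the phosphatase PTPRZ1 was at the value of 0 reads in 9 libraries. LOC106781070, which carries the identifier of IL3RA, had a log2 fold change of -0.76 (adjusted p = 0.109, limma, and 0.0133 with the donor as a block) and was lower with IL-1β in 5 of 5 donors.

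Of 25 genes of signalling below the receptors, all were tested and 1 was called, with a median log2 fold change of 0.06. SOCS2, a suppressor of cytokine signalling that STAT5 induces, fell from 11.54 ± 0.44 to 10.20 ± 0.26 (SD, n = 5 in each group), which is a log2 fold change of -1.34 (adjusted p = 0.00184, limma). SOCS3, the suppressor best known to act on the G-CSF and IL-6 receptors, had a log2 fold change of 0.54 (adjusted p = 0.0194, limma), below the minimum for a call, and its groups did not overlap. LYN, a kinase of the SRC family, was called only with the donor as a block (log2 fold change 1.48, adjusted p = 0.00995, against 0.0741 without the block), and it was higher in 5 of 5 donors. STAT3, a main transducer of the G-CSF receptor, was at -0.49 (adjusted p = 0.0134, limma), PTPN11, the phosphatase SHP2, at -0.36 (0.0143) and PIK3R1, a subunit of PI3-kinase, at -0.81 (0.0232), also below the minimum for a call. Each of these was lower with PF + IL-1β in 5 of 5 donors, and the groups of STAT3 and PTPN11 did not overlap. Over all tested genes the groups of 12.7% did not overlap, in either direction. LOC100052954, which carries the identifier of STAT5B, was at 0.24 (adjusted p = 0.154) and higher in 5 of 5 donors. The kinases JAK1, JAK2 and TYK2 and the transcription factor STAT5A had log2 fold changes between -0.02 and 0.23, with adjusted p-values from 0.420 to 0.917.

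Of 16 transcription factors with known roles at the CSF genes, 15 were tested and 3 were called, all higher, with a median log2 fold change of 0.12. Of all tested genes 3.11% were called as higher, and the groups of 6.29% did not overlap in this direction. CEBPB rose by a log2 fold change of 1.50 (adjusted p = 1.86e-04, limma), NFKB1, the precursor of p50 of NFκB, by 1.15 (4.36e-04) and FOSL1, a subunit of AP-1, by 1.40 (0.00120), each without overlap of the groups. REL, another subunit of NFκB, was at 0.95 (adjusted p = 0.00543, limma) and higher in 5 of 5 donors, and NFATC1 was at -0.95 (0.00430) and lower in 5 of 5 donors. The groups of both did not overlap, and both lay just below the minimum fold for a call. RELA, the p65 subunit, had a log2 fold change of 0.15 (adjusted p = 0.288). SPI1, the factor of the myeloid lineage, was at the value of 0 reads in 8 libraries and was not tested.

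Of 14 genes that control the stability or translation of such transcripts, 2 of 14 tested were called, in opposite directions, with a median log2 fold change of 0.08. ZC3H12A, which encodes the endoribonuclease regnase-1 that degrades cytokine transcripts, rose from 9.25 ± 0.30 to 12.29 ± 0.37 (SD, n = 5 in each group), which is a log2 fold change of 3.04 (adjusted p = 1.78e-05, limma). ZFP36L2, a protein that binds AU-rich elements and promotes decay, fell, with a log2 fold change of -1.44 (adjusted p = 0.00150, limma). ZFP36 itself, also called tristetraprolin, had a log2 fold change of 0.27 (adjusted p = 0.327). Of 7 genes of the shedding and processing of the ligands and receptors, 6 were tested and 1 was called, with a median log2 fold change of 0.21. This was MMP9, a protease known to release KITLG from the cell surface, with a log2 fold change of 2.09 (adjusted p = 0.0182, limma), higher in 4 of 5 donors and no longer called without donor 1, 2 or 5. The sheddase ADAM10 was at 0.49 (adjusted p = 0.00851, limma), below the minimum for a call, higher in 5 of 5 donors and without overlap of the groups. ADAM17, a sheddase of CSF1 and of its receptor, had a log2 fold change of 0.22 (adjusted p = 0.107).

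**Figure D4:**
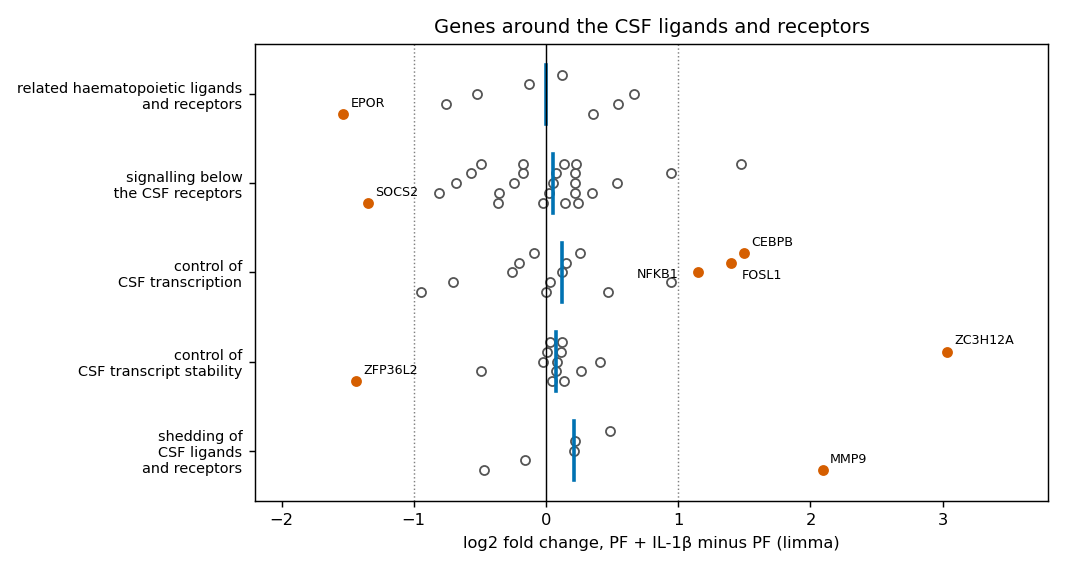
Log2 fold change from limma (x axis, PF + IL-1β minus PF) of each tested gene of the 5 lists, with 1 point per gene. Filled and named points were called, blue bars give the median of a list and dotted lines mark an absolute change of 1. Most points lie close to 0, and 8 genes were called, 5 higher and 3 lower. Of all tested genes 6.68% were called.

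Because the receptors are mainly known from blood cells, the markers of such cells were read beside them. Of 22 macrophage and neutrophil markers in the table, of which SPI1 is also in the list of transcription factors, 18 had at most 9 estimated reads in every library, and 6 were at the value of 0 reads in all 10, among them C1QA, C1QB, C1QC, AIF1 and TYROBP. PTPRC, which encodes the leukocyte antigen CD45, had 3 estimated reads in 1 library and none in the others. The summed normalized count of the 14 macrophage markers lay between 65.4 and 1768 per library with PF and between 172 and 1953 with PF + IL-1β, and that of the 8 neutrophil markers between 1.26 and 34.7 and between 121 and 431. CD68, a lysosomal protein that fibroblasts also express, rose by a log2 fold change of 1.70 (adjusted p = 0.00795, limma), and S100A12, a calcium-binding protein of neutrophils, by 3.10 (6.91e-04). S100A12 had up to 297 estimated reads in a library, and no other neutrophil marker had more than 5. The sum of the neutrophil markers with PF + IL-1β was thus mostly that of S100A12. CD14, a co-receptor for lipopolysaccharide, had 1466, 230, 0, 0 and 0 estimated reads in donors 1 to 5 with PF and 1357, 618, 0, 289 and 1040 with PF + IL-1β. In donors 4 and 5 it thus had reads only with PF + IL-1β, and in donor 3 in neither library. Its log2 fold change was 2.66 (SE 1.72, adjusted p = 0.340, limma), higher in 4 donors and lower in none. ITGAM, another of the macrophage markers, had reads in every library, at most 29. Its log2 fold change was 0.37 (adjusted p = 0.568, limma).

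The markers of other cell types were read in the same way. Of 8 lymphocyte markers, 5 were at the value of 0 reads in all libraries and none had more than 2 reads, with summed normalized counts of at most 3.91 and 6.28 in the groups. Of the 5 mast cell markers, MS4A2 was at 0 reads throughout, and CPA3, HDC and FCER1A had at most 2, 4 and 7 estimated reads in a library. GATA2, a transcription factor that is not restricted to mast cells, rose by a log2 fold change of 1.91 (adjusted p = 9.72e-04, limma). The sums lay between 1189 and 1978 with PF and between 3081 and 8774 with PF + IL-1β. They were almost wholly those of GATA2, which had up to 7498 estimated reads. The 6 endothelial markers summed to 6.83 to 39.3 and 3.88 to 26.2. The 5 markers of pericytes and smooth muscle summed to 3711 to 37285 and 4550 to 13274. Of these, DES, CSPG4 and RGS5 were called as lower, with log2 fold changes of -2.98, -1.84 and -1.96 (adjusted p = 0.00546, 0.00212 and 0.0106, limma). MYH11, which had up to 30958 estimated reads in a library, was at -0.56, and MCAM went the other way, at 0.34. Both had an adjusted p above 0.05 and were not called, so the list did not fall as a whole.

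The tendon markers matched the label in part. COL1A1 and COL1A2, the chains of collagen I, were at 18.74 on average with PF, and SCX and MKX, transcription factors of tendon, at 11.12 and 11.45, whereas TNMD, a marker of mature tendon cells, was at the value of 0 reads in all 10 libraries. Of all tested genes 3.57% were called as lower, and 8.26% were called in either direction with the donor as a block. Of the 12 tendon markers 10 were tested and 4 were called, all lower, and 6 with the donor as a block. These 4 were COMP, with a log2 fold change of -3.63, SCX, with -3.24, MKX, with -2.85, and TNC, with -2.04 (adjusted p-values from 6.11e-04 to 0.0135, limma). Of the tested markers only DCN went the other way. It was not called (log2 fold change 1.01, adjusted p = 0.268, limma) but was higher in 5 of 5 donors. The summed count lay between 980645 and 1597470 with PF and between 280663 and 1090450 with PF + IL-1β. The part of any of these markers in the results on the ligands was not tested.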

How the data were processed

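Poly(A) RNA of 3D tenocyte cultures was sequenced in 5 libraries per group. Reads were assigned to EquCab3.0 transcripts by the authors using Salmon (version 1.8) with a GC-bias correction, summed to genes using tximport and tested by DESeq2 (version 1.36). The values they deposited are log2 values, variance-stabilized and normalized between libraries. The methods do not name the transformation, which was recognised from the values, and strandedness is not given in the sources used here. All 10 columns of values were used.

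Genes with reads in 5 or more of the 10 libraries were tested using limma (version 3.58.1) in R (version 4.3.3), with a trended prior variance. P-values were adjusted over 17992 genes by the method of Benjamini and Hochberg. No donor term was included, since the methods name none, and a second fit had the donor as a block. The replicate number stands for the tenocyte line in the sample titles. The 2 libraries of a line deviated together from their group means (correlations across genes from 0.367 to 0.506 over 5 pairs, against -0.266 to 0.0869 over 20 pairs of different lines), so the block was read as a pairing by donor.

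Normalized counts were recovered by solving the transformation for the count, given its value for a gene without reads. The most frequent of the lowest values was taken as 1 read, and between 65.9% and 83.6% of low values then came within 0.15 of whole reads, where values spread evenly would give 30%. Reads are therefore estimates. On simulated counts of 17992 genes for this comparison, limma called 199 of 200 changed genes and 0 unchanged ones. The simulated counts had a fixed dispersion and no differences between donors. Only genes above a minimum mean count were changed, each by more than the change of KITLG. The simulation therefore checked the procedure and does not give the power or the rate of false calls in the real libraries.

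The genes and lists were chosen with earlier results of these data known. The text names all members, up to 4 called genes per list by adjusted p, the 3 genes most correlated with a called member, and markers that were called or define a list. Genes named beside these were chosen after their values were seen. LOC rows were matched to CSF2RA, IL3RA and STAT5B by gene identifier. Alternatives were other filters, scales, normalizations and variance models, the donor block, no minimum fold change, and leaving out each library or donor. Gene sequences were not used here, so the planned search for promoter motifs was not made.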

Additional observations from a re-analysis of the deposited data

Results flagged for a closer look

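Among these genes, 2 of 14 sets of 5 values held 1 value far outside the rest, and about 0.7 would be found by chance. Both were receptors with PF + IL-1β. CSF1R stood at 3.90 in donor 2, on 1 estimated read, and CSF2RB stood at 4.11 in donor 5, on 2 estimated reads. The remaining 4 libraries had 0 reads in each case. A set of this kind is always flagged, however few reads the remaining library has. The number given for chance therefore does not apply to these sets.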

How the results depend on the processing

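Depth limits CSF2, CSF1R, CSF2RB and CSF3R, for which single reads decide the values, and low values are compressed on the deposited scale. CSF3 was called under all 25 alternatives, with log2 fold changes from 7.36 to 8.73. Against 1 member called, median centring gave 2, the replicate block 2, array weights 3 and the replicate block on log2(normalized count + 1), chosen after seeing the data, 3, and leaving out a library or donor gave 1 to 2. In these fits the members added were KITLG and, where there were 3, CSF2. Counting LOC102148014 beside the members, also chosen after seeing the data, gave 2. KITLG was called under 6 of 25 alternatives, with adjusted p-values from 0.00313 to 0.197 over all of them, and LOC102148014 under 22 of 25. The 6 included both fits with the donor as a block, and the other alternatives had no donor term. The log2 fold change of CSF1 turned to -0.015 without the PF library of donor 1 and to -0.032 without the PF + IL-1β library of donor 4, within a range of -0.032 to 0.32 over the 15 such fits. That of IL34 turned to 0.070 without the PF library of donor 4, to 0.045 without the PF + IL-1β library of donor 5 and to 0.11 without donor 5, within a range of -0.40 to 0.11. Of all genes, 1202 were called, 2782 without a minimum fold change, 1809 with the replicate block on log2(normalized count + 1), and 762 to 1422 with a library or donor left out. Without a minimum fold change the calls in the lists were 2 of related ligands and receptors, 5 of signalling, 5 of transcription and 2 of shedding, against 1, 1, 3 and 1. Signalling had 3 calls with array weights, 2 with the replicate block, 3 with the replicate block on log2(normalized count + 1) and 1 to 3 with a library or donor left out. Related ligands and receptors had 2 with the replicate block on log2(normalized count + 1), and shedding had 0 to 1 with a library or donor left out. The replicate block changed no other call of a member. The cause of these changes was not tested.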

Other observations

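The protein-coding genes next to each tested ligand and to CSF2RA, by their order in RefSeq's table of the assembly TB-T2T, were read as a description chosen after the data had been seen. On either side of CSF3, MED24 had a log2 fold change of 0.08 (adjusted p = 0.617, limma) and PSMD3, a subunit of the proteasome, of 0.59 (adjusted p = 0.00782), below the minimum for a call. Beyond MED24, THRA was at -0.85 (adjusted p = 0.0181, limma), also below the minimum for a call. Beside KITLG, TMTC3 was at 0.25 (adjusted p = 0.186) and LOC102150222 at 0.19 (0.849). Beside CSF1, AHCYL1 was at -0.02 (adjusted p = 0.884, limma) and EPS8L3 at 0.08 (0.909). Beside CSF2, LOC100146132 was at 0.47 (adjusted p = 0.226, limma), and ACSL6 was not tested. Beside IL34, SF3B3 was at 0.03 (adjusted p = 0.863, limma), and MTSS2 had no row. The gene next to CSF2RA is CRLF2, a chain of the receptor of the cytokine TSLP, and it rose by a log2 fold change of 2.29 (SE 0.48, adjusted p = 0.00969, limma). On the other side of CSF2RA, LOC106781070, which carries the identifier of IL3RA, was at -0.76. CRLF2 was the only gene called among these neighbours, and 6.68% of all tested genes were called.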
